A study of Mus musculus with 4 samples.

Results

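The strongest ATAC-seq peaks of the wild-type mouse heart at postnatal day 14 are described here. They were selected on their signal: each peak's raw count was divided by the total count of its library and multiplied by 1000000 to give CPM, and the 1000 autosomal peaks with the highest mean CPM of the 2 wild-type libraries were taken, out of 86612 autosomal peaks and 87948 peaks in all. ATAC-seq measures where a transposase can cut and tag DNA, so a high count marks a wide or very accessible stretch of chromatin. The libraries came from heart tissue at postnatal day 14, with 2 from wild-type mice and 2 from Carm1 mutant mice. The labels name neither the Carm1 allele nor the strain or sex, and do not say whether replicates are separate animals, so p-values measure only the spread between these samples, which may be technical. Totals in peaks lay between 15945420 and 19091969 counts per library, and each of the 1000 peaks had at least 602 counts in each library.

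Carm1 (also Prmt4) methylates arginines of histones and of RNA-binding proteins, and serves as a coactivator for several transcription factors. In most tissues the strongest and broadest accessible regions are promoters of genes that many cell types use, often CpG-rich, together with promoters of rapidly inducible regulators and the genes by which a tissue is known. In the heart those are the genes of the sarcomere, the contractile unit of the cardiomyocyte, and of fuel oxidation. Heart tissue mixes cardiomyocytes with endothelial cells, fibroblasts, mural cells and leukocytes, and in bulk samples fewer cells of a type and less accessibility per cell cannot be told apart.

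Because the wild-type values chose these peaks, their wild-type levels are a description without a test. Their mean wild-type CPM ran from 74.6 to 7299, with a median of 93.5, against a median of 5.55 over all autosomal peaks. The last peak inside, of rank 1000, lay at Myc with 74.55 CPM, and the first outside lay at Bag3, Tmed1 and Wwc2 with 74.55, 74.54 and 74.50 CPM, so the edge of the set is a line through a continuous range. The peaks were wide, with a median width of 2645.5 bp against 533 bp for all autosomal peaks. They covered 4.77% of the base pairs in peaks and held 12.1% and 11.7% of the counts of wild-type replicates 1 and 2. In mutant replicates 1 and 2 they held 12.3% and 12.7%.

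**Figure D1:**
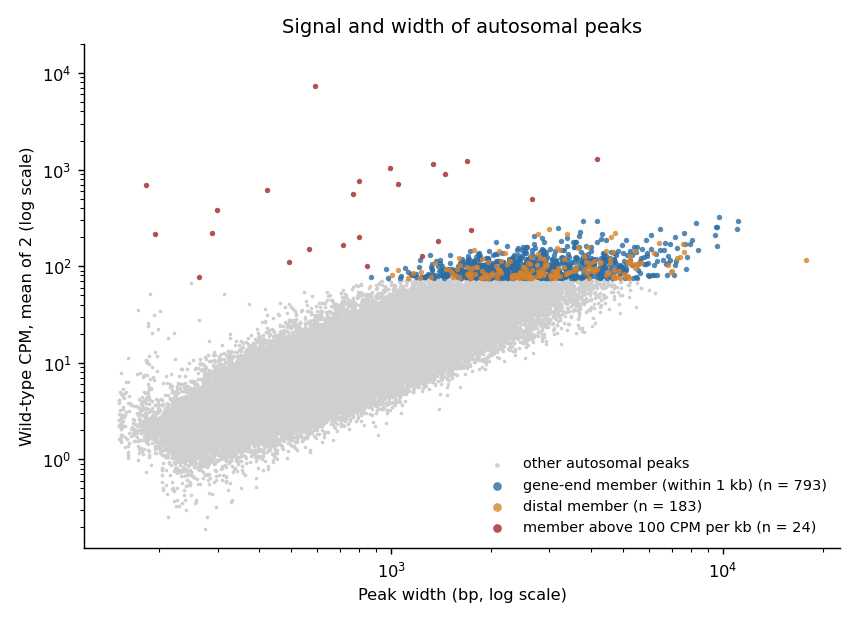
Peak width in bp against mean wild-type CPM for autosomal peaks, both on log scales, with 1 point per peak. The 793 gene-end and 183 distal peaks in color sit at the wide end of the general trend, while the 24 peaks above 100 CPM per kb stand above it, many of them under 1000 bp wide.

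A few promoters are printed because they stand for genes met below: a clock gene and an inducible phosphatase at the top of the ranking, the heart's own myosin, and the gene with the clearest difference between genotypes. Each line gives the 150 bases just upstream of a RefSeq start site (GRCm38.p6, the mouse assembly that mm10 is built on), 5′ to 3′ on the gene's strand. Capitals mark matches, on either strand, to a GC box (GGGCGG), the NF-Y element (CCAAT), the core of ETS factor sites (TTCCGG) or a cyclic AMP response element (TGACGTCA), and matches that touch or overlap run together. The Per1 stretch is chr11:69098799-69098948 on the plus strand, that of Dusp1 is chr17:26508473-26508622 on the minus strand, that of Myh6 is chr14:54966608-54966757 on the minus strand, and that of Txnip is chr3:96557807-96557956 on the plus strand.
Per1: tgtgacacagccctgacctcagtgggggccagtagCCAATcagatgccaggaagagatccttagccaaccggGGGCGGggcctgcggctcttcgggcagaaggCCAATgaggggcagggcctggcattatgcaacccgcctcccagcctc
Dusp1: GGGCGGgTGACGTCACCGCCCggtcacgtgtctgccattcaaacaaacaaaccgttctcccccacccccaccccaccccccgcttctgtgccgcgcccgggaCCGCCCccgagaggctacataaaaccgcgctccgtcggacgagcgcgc
Myh6: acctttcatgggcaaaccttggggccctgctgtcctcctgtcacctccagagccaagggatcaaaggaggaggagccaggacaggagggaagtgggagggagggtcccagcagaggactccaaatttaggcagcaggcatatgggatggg
Txnip: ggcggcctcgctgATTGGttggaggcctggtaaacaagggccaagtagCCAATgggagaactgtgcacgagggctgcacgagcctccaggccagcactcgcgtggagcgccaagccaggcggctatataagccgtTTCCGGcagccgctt
The Myh6 stretch held no match to any of the 10 motifs searched. The CpG ratio is observed over expected CpG in the window from 250 bases before to 50 after the start. It was 0.08 at Myh6, against 0.54 at the printed Per1 start, 0.92 at Dusp1 and 0.76 at Txnip. Another Per1 start in the same peak, not printed, had a ratio of 0.68. The 150 bases upstream of it held a GC box and an ETS core.

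Most of the strongest peaks lay at gene ends. A peak that overlapped or came within 1 kb of either end of a protein-coding gene was called a gene-end peak, and any other a distal peak. By this rule 794 of the 1000 (79.4%) were gene-end peaks, against 18% of all autosomal peaks, and 206 were distal. A start site listed in the RefSeq promoter table lay inside 731 (73.1%), against 12.2% of all autosomal peaks. The gene-end peaks touched 1061 protein-coding genes, 5.14% of the 20661 autosomal ones. Of the 20661, 12949 had a gene-end peak of any strength. The shares of lists below are set against all 20661 and not against those 12949, among which the share is higher. Many gene-end peaks of the set lay where genes adjoin: 260 of the 794 (32.7%) were within reach of 2 or more genes, against 17.0% of all autosomal gene-end peaks, and 20 were within reach of 3 or more. The peak with the most gene ends, 5, lay at Stub1, Jmjd8, Rhbdl1, Rhot2 and Wdr24, a compact cluster on chromosome 17.

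The sequence of these promoters was not used in choosing them. Over the 969 protein-coding promoter windows that lay in gene-end peaks of the set, the median GC content was 63.3%, against 61.7% for the 10417 windows in other peaks and 48.7% for the 8634 windows in no peak. The median CpG ratio was 0.81, against 0.77 and 0.23. A GC box, to which SP and KLF factors bind, stood in 75% of the windows, against 65.9% in other peaks and 47.0% of all 20084 windows. The NF-Y element stood in 46.0%, against 37.1% in other peaks and 38.1% of all windows. The NRF1 core (GCGCANGCG) was in 15.3%, against 14.2% and 8.75%, and the ETS factor core in 28.3%, against 28.8% and 19.1%, so in these the set was close to other peaks. A TATA box (TATAAA) stood in 5.47%, against 6.38% in other peaks and 12.7% of all windows. Of motifs of cardiac factors, the GATA core (AGATAA) was in 4.02% of the windows, against 5.71% in other peaks and 9.57% of all windows. The MEF2 core (TAAAAATA) was in 0.413%, only 4 of the 969 windows, against 1.16% and 2.04%. The TEAD core (GGAATG) was in 11%, close to the 11.8% in other peaks, and in 13.4% of all windows. A match describes letters, not a bound site, and no match says nothing of the factor. The remaining motifs searched were the cyclic AMP element and a CArG core of SRF (CCATATTAG). The cyclic AMP element was in 2.89% of the windows, against 3.51% in other peaks and 2.30% of all. The CArG core, searched as 1 exact string, was in 1 of the 969 windows (0.103%). It was in 8 windows in other peaks (0.0768%) and 16 of all (0.0797%), too few to compare.

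The strongest gene-end peak covered 9735 bp, held an end of the noncoding RNA gene Neat1, which scaffolds paraspeckles, and came within 289 bp of Frmd8 (chromosome 19, 5840951 to 5850685, mm10). It had 330 and 323 CPM in the wild-type libraries and 303 and 358 CPM in the mutant libraries. The groups overlapped, and the log2 fold change of mutant over wild type, given with its standard error, was 0.05 ± 0.11 (edgeR adjusted p = 0.829). Next came Per1, a light- and hormone-inducible repressor of the circadian clock, with a peak of 11108 bp (chromosome 11, 69094230 to 69105337). Its signal was 293 and 298 CPM in the wild type and 267 and 300 CPM in the mutant, again with overlap. Myh6, which encodes the adult alpha-myosin heavy chain, had gene-end rank 5 (chromosome 14, 54963580 to 54971890). The same 8311 bp also held the start of Mhrt, the antisense noncoding RNA of the locus, and came within 1 kb of an end of Myh7. It had 282 and 271 CPM in the wild type and 319 and 306 CPM in the mutant, so both mutant libraries lay above both wild-type libraries, by a log2 fold change of 0.21 ± 0.11 that missed the threshold of 0.05 (edgeR adjusted p = 0.245).

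The other leading gene-end peaks lay at genes of signalling and general cell function. Dusp1, a phosphatase that shuts off MAP kinases after stress, had 255 and 257 CPM in the wild type. Gsk3a, a kinase of glycogen and Wnt signalling, had 242 and 260 CPM, and Akt1s1, a subunit of the mTORC1 growth complex, had 221 and 234 CPM. Peaks shared by neighbours lay at Rras and Scaf1 (287 and 300 CPM), Midn and Atp5d (263 and 246 CPM) and Tns2 and Eif4b (221 and 215 CPM). Rras is a small GTPase, Atp5d a subunit of the mitochondrial ATP synthase, and Eif4b a translation initiation factor. Crip2, which encodes a LIM-domain protein, had 263 and 219 CPM, and Rhof, a small GTPase gene, had 252 and 229 CPM. LOC108167694, a predicted gene, had 274 and 314 CPM. The peaks at Akt1s1, Crip2, Rhof and LOC108167694 were shared as well, with Tbc1d17, Mta1, Setd1b and Gm20783 in that order. By edgeR's quasi-likelihood test between genotypes, 5.50% of all 87948 peaks were called at an adjusted p under 0.05, 3.05% higher in the mutant and 2.45% lower. None of these leading gene-end peaks was called, with log2 fold changes from -0.13 at Rras to 0.26 at Tns2.

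Rapidly inducible genes were the list most often marked. Of 22 immediate early and AP-1 genes, which are switched on within minutes of a stimulus, 12 (54.5%) had a gene-end peak in the set, against 5.14% of all genes. Jun had 214 and 221 CPM in the wild type and 209 and 190 CPM in the mutant. Junb had 146 and 156 CPM in the wild type and 162 and 147 CPM in the mutant, and Egr1 had 139 and 146 CPM and 148 and 124 CPM. At Jun both mutant libraries lay below both wild-type libraries, at Junb and Egr1 the genotypes overlapped, and none of the 3 passed the threshold. Fos, Fosl2, Jund, Atf3, Btg2, Klf2, Klf10, Dusp1 and Myc were the others. Of the 13 peaks of the list (1 of them distal), 1 rose in the mutant, at Myc, and the median log2 fold change was 0.01.

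Clock genes followed, with 8 of 19 (42.1%). Besides Per1 they were Nr1d1 and Nr1d2, which encode the REV-ERB repressors, Dbp, an output factor of the clock, Bhlhe40, Cry2, Per2 and Nfil3. Nr1d1 shares its peak with the overlapping gene Thra, the thyroid hormone receptor of cardiomyocytes (chromosome 11, 98768966 to 98776120). It had 200 and 199 CPM in the wild type and 230 and 247 CPM in the mutant (log2 fold change 0.29 ± 0.11, edgeR adjusted p = 0.124). Dbp had 181 and 161 CPM in the wild type and 216 and 195 CPM in the mutant (log2 fold change 0.30 ± 0.12, edgeR adjusted p = 0.14). At both genes the genotypes did not overlap, and neither passed the threshold. Tef, a relative of Dbp, was the nearest gene to 2 distal peaks of the set. None of the 10 clock peaks was called.

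Genes of the cardiomyocyte were marked as well. Of 12 cardiomyocyte markers, 4 (33.3%) had a gene-end peak in the set, namely Myh6, Tnni3, Myl2 and Pln, the last of which restrains the calcium pump, and Tnnt2 and Ttn had a distal peak. Of 37 genes of the sarcomere and Z-disc, 8 (21.6%) had a gene-end peak. Myl2, the ventricular regulatory light chain, had 100 and 95.1 CPM in the wild type and 123 and 110 CPM in the mutant. Tpm1, the tropomyosin gene, had 125 and 120 CPM in the wild type and 156 and 146 CPM in the mutant (log2 fold change 0.34 ± 0.12, edgeR adjusted p = 0.0957). At both, the mutant libraries lay above the wild-type libraries without passing the threshold.

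Transcription factors of the heart had a gene-end peak in the set in 10 of 37 cases (27%). Gata6, a zinc-finger factor of heart development, had 151 and 146 CPM in the wild type. Its relative Gata4 had a gene-end peak of 76.7 and 78.6 CPM and a stronger distal peak within the gene, of 95.6 and 93.8 CPM. Esrra, which drives mitochondrial genes, had 153 and 170 CPM, and Mef2d, a muscle factor of the MADS family, had 154 and 137 CPM. Over the whole list log2 fold changes ran from -0.12 to 0.36, the highest at the gene-end peak of Gata4 (edgeR adjusted p = 0.117). Srf, the factor of actin and immediate early genes, had a distal peak over an internal start site, with 147 and 142 CPM. The 13 peaks of this list had no call and a median log2 fold change of 0.11.

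Fuel metabolism was marked at single enzymes. In glycolysis and glucose use 5 of 21 genes (23.8%) had a gene-end peak, led by Gapdh with 138 and 139 CPM in the wild type and Aldoa with 115 and 121 CPM. In fatty acid oxidation it was 5 of 28 (17.9%), namely Etfdh, Lpl, Pdk4, Acadm and Fabp3. Etfdh, which passes electrons from fatty acid oxidation to the respiratory chain, had 118 and 133 CPM, and Lpl, the lipase that releases fatty acids from lipoproteins, 111 and 110 CPM. None of the 6 glycolytic and 5 fatty acid peaks was called. Of 92 genes of the respiratory chain and ATP synthase 11 (12%) had a gene-end peak, and a further distal peak was assigned to the list. That distal peak, nearest to Cox4i2 but lying within Bcl2l1, was the 1 of the 12 that was called, and it fell.

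Among general cell functions, splicing factors stood out by their share. Of 30 SR and hnRNP genes, whose products bind and process nascent RNA, 10 (33.3%) had a gene-end peak in the set, and 9 of those peaks also reached a neighbouring gene. Hnrnpl had 175 and 165 CPM in the wild type and 193 and 169 CPM in the mutant, and the 11 peaks of the list had log2 fold changes from -0.13 to 0.13. Translation factors reached 9 of 67 (13.4%), chaperone genes 11 of 81 (13.6%, with Hspg2, a matrix proteoglycan caught by its symbol), and SLC25 mitochondrial carriers 6 of 43 (14%). Cytosolic ribosomal proteins were at 6 of 82 (7.32%) and mitochondrial ribosomal proteins at 6 of 78 (7.69%), near the share over all genes. Proteasome subunits reached 2 of 47 (4.26%) and Zfp zinc finger genes 14 of 360 (3.89%). Histone genes reached 1 of 81, H1f0, and olfactory receptors 0 of 1100. Among 9 arginine methyltransferases, Prmt1, Prmt5 and Carm1 itself had a gene-end peak in the set. The Carm1 peak had 90.9 CPM in each wild-type library and 89.8 and 94.9 CPM in the mutant, a difference within the spread of the mutant pair (log2 fold change 0.06 ± 0.13, edgeR adjusted p = 0.839). Which part of Carm1 was altered is not given in the labels, and this peak is no check of the genotype.

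Smaller lists filled in the picture of the heart. Of 30 genes of calcium handling and ion channels 3 (10%) had a gene-end peak in the set, Pln, Camk2d and Atp2a2, the last of which encodes the calcium pump SERCA2, with 87.0 and 85.4 CPM in the wild type. Of 27 genes of cell junctions and costameres 3 (11.1%) did, Jup, Tln1 and Dag1, and Jup, the plakoglobin gene of the desmosome, had 119 and 103 CPM. Of 13 natriuretic and stress genes 4 (30.8%) did, Atf3, Ccn1, Rcan1 and, through the Myh6 peak described above, Myh7. None of the peaks of these lists was called. Of 25 heat shock genes 5 (20%) had one, and Hspb7, a small heat shock protein of heart muscle, was the strongest. It had 144 and 150 CPM in the wild type and 195 and 180 CPM in the mutant, so the genotypes lay apart, at a log2 fold change of 0.38 ± 0.12 that just missed the threshold (edgeR adjusted p = 0.0552). For 21 imprinted or abundant noncoding RNA genes, ends of noncoding genes were counted too, and 5 (23.8%) had a peak: Neat1, Mhrt, Peg3, Malat1 and Rmrp. Malat1, a nuclear noncoding RNA, had 96.6 and 82.5 CPM in the wild type and 105 and 125 CPM in the mutant (log2 fold change 0.40 ± 0.13, edgeR adjusted p = 0.084). Rab GTPases reached 6 of 55 (10.9%) and RNA polymerase subunits 3 of 29 (10.3%), with no call in either family.

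Genes of the other cell types of the heart had few peaks in the set, at shares near the 5.14% of all genes. Of 22 endothelial markers 1 (4.55%) had a gene-end peak in it, Egfl7, and of 13 leukocyte markers 1 (7.69%), Cd68, whose peak also lay within reach of Eif4a1 and Mpdu1. There was none for 13 fibroblast, 12 mural and 10 neural and Schwann markers, lists too short to set apart from that share. These genes did have weaker gene-end peaks, 21 of 22 endothelial, 13 of 13 fibroblast, 11 of 12 mural, 3 of 13 leukocyte and 4 of 10 neural markers. Egfl7 encodes a secreted vessel factor and its peak, which also reaches Agpat2, spans the microRNA genes Mir126a and Mir126b (chromosome 2, 26586621 to 26594358). It had 113 CPM in wild-type replicate 1 and 72.9 CPM in wild-type replicate 2, with 88.7 and 101 CPM in the mutant, so the wild-type libraries lay on either side of the mutant ones. The summed gene-end signal of the endothelial markers showed the same order in the wild type, 790 CPM in replicate 1 and 598 CPM in replicate 2, with 608 and 624 CPM in the mutant, and its part in these values was not tested.

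**Figure D2:**
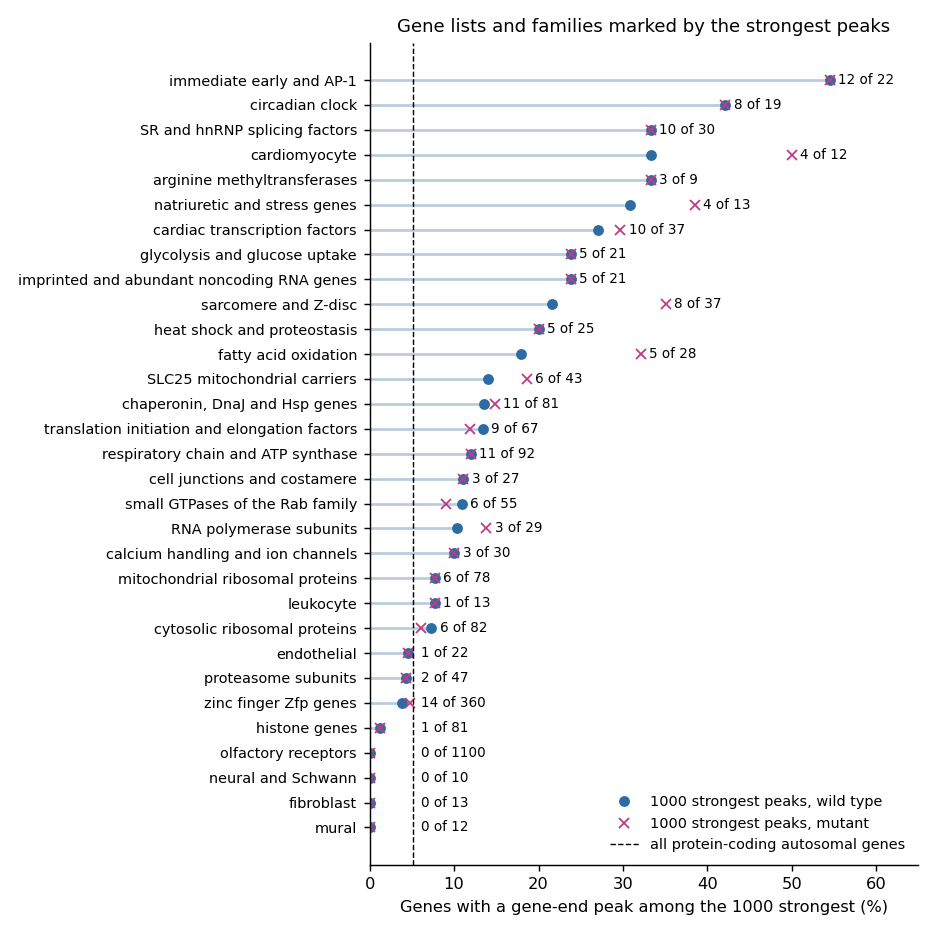
Percent of the autosomal genes of each list or family with a gene-end peak among the 1000 strongest autosomal peaks, chosen on the wild-type mean (circles) or on the mutant mean (crosses). Labels give the wild-type counts, and the dashed line is the 5.14% of all protein-coding genes. Immediate early genes stand highest in both rankings, and cardiomyocyte and sarcomere genes stand higher on the mutant ranking than on the wild-type ranking.

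Ranking the peaks on the mutant libraries, which the selection did not use, gave the same picture for most lists. The top 1000 peaks of this ranking shared 871 with the set, so close counts are no independent check. The count was 12 of 22 immediate early genes, 8 of 19 clock genes and 10 of 30 splicing factors, each equal to the wild-type count, against 5.11% of all genes. Sarcomere genes came to 13 of 37 (35.1%) instead of 8, cardiomyocyte markers to 6 of 12 instead of 4, and fatty acid oxidation genes to 9 of 28 (32.1%) instead of 5. Some entering peaks lay near the line and were not called, such as those at Mybpc3 (wild-type rank 1010) and Acaa2 (rank 1025). Hadha and Hadhb share an entering peak, also not called (rank 1611). Others came from further below, such as those at Ttn (rank 1700, not called) and Synpo2l (rank 1621, called higher). These differences in count were not tested.

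Distal peaks of the set were of 2 kinds, and the first is like the gene-end peaks in strength and width. Of the 206, 183 had at most 100 CPM per kb of width. Of these, 67 held a RefSeq start site, for 49 of them a start of a protein-coding gene that lies more than 1 kb inside the gene's outer ends and for 18 only a start of another kind of gene. A further 72 lay within a protein-coding gene without a listed start, and 44 lay between genes. Their median distance to a protein-coding gene end was 11777 bp, and 36 lay more than 50 kb from any.

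The strongest distal peak of this kind with a start site lay at the host gene of miR-22, an abundant microRNA of heart muscle (chromosome 11, 75459345 to 75464081). It had 210 and 229 CPM in the wild type and 214 and 245 CPM in the mutant, with overlap between the genotypes. Its mature product is printed with that of the Egfl7 locus, as 2 microRNAs well known from heart muscle and from vessels. Capitals mark the seed, bases 2 to 8, and the sequences are from RefSeq, with hairpins at chr11:75463716-75463810 and chr2:26591357-26591429, both on the plus strand.
miR-22-3p: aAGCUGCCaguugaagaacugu
miR-126a-3p: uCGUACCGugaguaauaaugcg
The seeds differ, and neither peak was called (edgeR adjusted p = 0.662 and 0.864).

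Within the heart's muscle genes, several distal peaks lay inside the gene body. A 17794 bp peak within Ttn, which encodes the giant elastic protein titin, was the widest peak of the whole table (chromosome 2, 76735938 to 76753731). Tnnt2, the cardiac troponin T gene, held a peak of 136 and 113 CPM in the wild type. Ldb3, which encodes the Z-disc protein ZASP, had 3 peaks in the set, 2 of them distal. Hspg2, the perlecan gene, was the only other gene with 3. A distal peak 7346 bp from the nearest end of Myh7 had 166 and 153 CPM (chromosome 14, 55001972 to 55005887), and 1 within Plec, which encodes the cytoskeletal linker plectin, had 173 and 164 CPM. Beside the muscle genes, distal peaks over internal start sites marked Tef, Rfx1, Sin3a, Sgk1, Hdac4 and Idh1, with 103 to 145 CPM on average in the wild type. These are genes of transcription control, kinase signalling and isocitrate oxidation. Their log2 fold changes ran from -0.25 to 0.09.

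The second kind was narrow and extremely dense. No blacklist or repeat annotation was used here, so whether these peaks are open chromatin or regions where reads pile up for another reason was not tested. In all, 24 peaks of the set exceeded 100 CPM per kb, a limit chosen after the values were seen, and 23 of them were distal. They had a median width of 800.5 bp and included the 13 strongest of all 1000. The strongest covered 591 bp (chromosome 16, 61670380 to 61670970), was 1059469 bp away from any end of a protein-coding gene, and had 8533 and 6064 CPM in the wild type and 8135 and 10660 CPM in the mutant. A 4176 bp peak on chromosome 8 (75362510 to 75366685) had 1462 and 1096 CPM in the wild type and 1709 and 1901 CPM in the mutant. Of the 24, 1 held a start site, that of Fem1a, and 14 lay more than 50 kb from any protein-coding gene end. The nearest genes within 50 kb included Hmgn3, Olfr874, Vmn1r51, Serpinb1b, Slc22a28 and Magi3, which share no list used here.

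These dense peaks moved together across libraries. In 22 of the 24, wild-type replicate 1 exceeded wild-type replicate 2 by 1.28 to 1.73 times, and in the same 22 the mutant mean exceeded the wild-type mean by 1.29 to 1.74 times. Their share of all counts was 2.19% and 1.59% in wild-type replicates 1 and 2 and 2.42% and 2.86% in mutant replicates 1 and 2. Of the other 976 peaks, 3 had the same order of libraries with steps of like size. Those 3 were distal and called higher. They lay 17590 bp from Resf1 on chromosome 6 and more than 50 kb from any protein-coding gene end on chromosomes 8 and 12. The cause of this shared pattern was not tested. A different outlier lay within Myo3a (chromosome 2, 22588127 to 22590236), with 149 and 31.5 CPM in the wild type and 62.7 and 40.4 CPM in the mutant, so its place in the set rests on wild-type replicate 1.

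**Figure D3:**
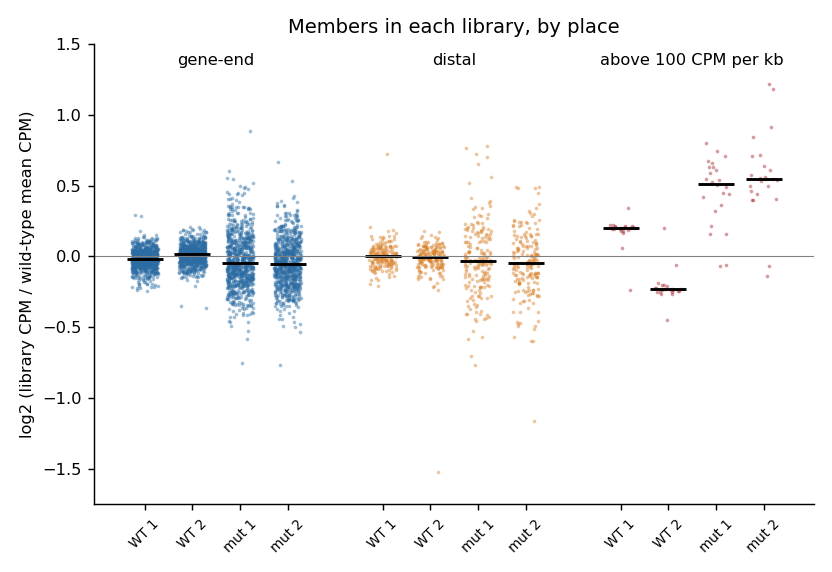
Log2 ratio of each library's CPM to the wild-type mean CPM of the same peak, with 1 point per peak and a black bar at the median, for gene-end peaks, distal peaks up to 100 CPM per kb, and the 24 peaks above it. Gene-end peaks and distal peaks up to 100 CPM per kb center near 0 in each library. Most of the dense peaks are low in wild-type replicate 2 and high in both mutant libraries.

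The question put to the mutant libraries was how far the wild-type ranking holds in hearts with altered Carm1. It held for most peaks. Of the 1000, 871 were also among the 1000 strongest autosomal peaks by the mutant mean, and 995 were among the strongest 2000. The single mutant libraries shared 840 and 841 with the set. Between single libraries, the top 1000 of the 2 wild-type replicates shared 871 peaks and those of the 2 mutant replicates 825. Each wild-type library against each mutant library shared 843 and 842 peaks for wild-type replicate 1, and 813 and 834 for wild-type replicate 2. The first 500 peaks of the set kept their place more often, with 498 in the mutant top 1000, than the last 500, with 373. Within 1.5-fold of the wild-type mean were 981 peaks in mutant replicate 1 and 987 in mutant replicate 2. Above 1.5-fold in both mutant libraries were 2 peaks, at Txnip and at a dense peak near Vmn1r51, and none was below in both.

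By the same test, 38 of the 1000 were called (3.80%), against 5.50% of all peaks. Of these 32 rose, against 3.05% of all peaks, and 6 fell, against 2.45%. Since the wild-type values that chose the set enter this contrast, the counts describe stability and no test is drawn from them. Among the 32, 21 were dense peaks, and without the dense peaks 11 rose and 6 fell. By place, 8 of 794 gene-end peaks were called (1.01%, against 2.05% of all autosomal gene-end peaks). Of the 183 distal peaks up to 100 CPM per kb 9 were called (4.92%, against 6.25% of all autosomal distal peaks). Those 9 were all among the 116 without a listed start site, and 0 of 67 with a start site were called. No called share over all distal peaks was split by start site, so no difference in stability is read from this split. Irrespective of calls, both mutant libraries lay above both wild-type libraries in CPM in 176 of the 1000 and below both in 282. The median CPM ratio of mutant over wild type was 0.972 in the set and 0.976 over all peaks. No such count over all peaks stands beside these, so no difference between genotypes is read from them. The median log2 fold change of the set was -0.01, with 5% of peaks below -0.23 and 5% above 0.33. Over all peaks the median was also near 0, with 5% below -0.87 and 5% above 0.87.

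Called shares varied along the ranking. With autosomal peaks ordered by the mean of all 4 libraries, which favours neither genotype, 2.06% of the top 1000 without dense peaks were called, and 4.4% with them. The share was highest, 6.31%, in the 20000 peaks that ended at rank 40000, and 5.31% in the 46612 peaks below them. The median standard error of the log2 fold change was 0.13 in the top 1000 and 0.34 in the lowest group, so the strongest peaks were the most precisely measured.

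**Figure D4:**
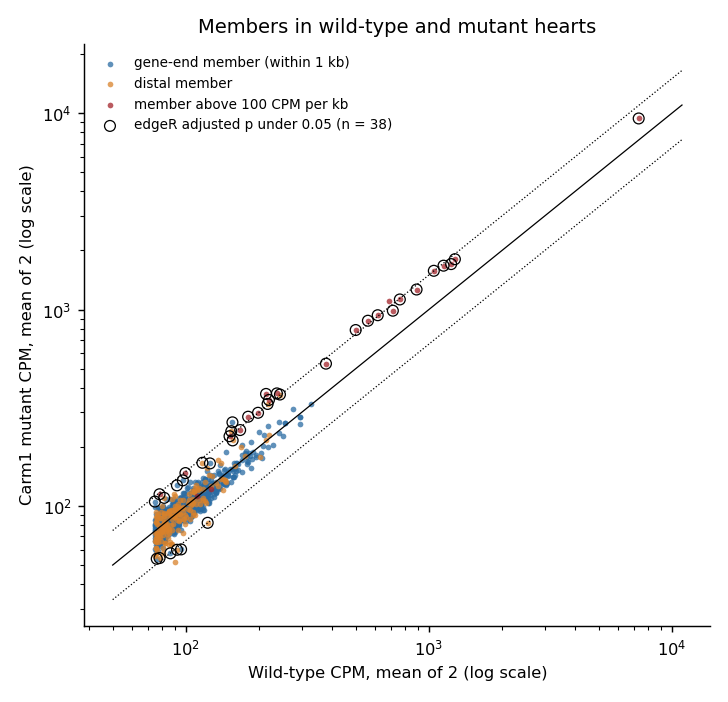
Mean CPM of the 2 mutant libraries against the mean of the 2 wild-type libraries for the 1000 peaks, both on log scales. The solid line marks equality, the dotted lines 1.5-fold, and rings mark the 38 called peaks, of which 21 are dense peaks above the line.

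Txnip had the clearest difference outside the dense peaks. It encodes a brake on glucose uptake and on thioredoxin, and its peak spans the promoter printed above (chromosome 3, 96556062 to 96563315). It had 170 and 141 CPM in the wild type and 287 and 246 CPM in the mutant, so the genotypes lay well apart. It rose by a log2 fold change of 0.81 ± 0.12 (edgeR adjusted p = 0.00134), which became 0.0535 when wild-type replicate 2 was left out.

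At 3 further gene-end peaks outside the lists of metabolism the rise was smaller. Angptl4, a secreted inhibitor of lipoprotein lipase, had 104 and 90.8 CPM in the wild type and 143 and 128 CPM in the mutant (log2 fold change 0.51 ± 0.13, edgeR adjusted p = 0.0237). Myc, the growth factor-responsive transcription factor at the last rank of the set, had 79.4 and 69.7 CPM in the wild type and 113 and 97.3 CPM in the mutant (log2 fold change 0.53 ± 0.13, edgeR adjusted p = 0.0243). Adprhl1, a gene of the heart's myofibrils, had 90.2 and 93.6 CPM in the wild type and 131 and 123 CPM in the mutant (log2 fold change 0.51 ± 0.12, edgeR adjusted p = 0.0207). In all 3 both mutant libraries were above both wild-type libraries.

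The sarcomere list had 14 peaks in the set, of which 3 rose and none fell, beside 3.05% higher over all peaks. At Ldb3 the gene-end peak rose from 130 and 121 CPM to 176 and 153 CPM (log2 fold change 0.43 ± 0.12, edgeR adjusted p = 0.0444). A distal peak within the gene rose from 81.3 and 81.6 CPM to 116 and 103 CPM (log2 fold change 0.47, edgeR adjusted p = 0.0352). The wide Ttn peak rose from 116 and 118 CPM to 199 and 133 CPM, mostly in mutant replicate 1 (log2 fold change 0.54 ± 0.15, edgeR adjusted p = 0.0388, and 0.326 without mutant replicate 1). The log2 fold changes of all 14 lay between 0.03 and 0.54 with a median of 0.30, against -0.01 over the set. In 11 of 14, beside 176 of the 1000 and with no count over all peaks to compare, both mutant libraries were above both wild-type libraries. With scaling by total counts 13 of 14 were above 0 and the median was 0.27. The count of called peaks was 1 without mutant replicate 1, 9 without mutant replicate 2, 1 without wild-type replicate 1, 0 without wild-type replicate 2 and 0 by DESeq2. In these fits the median was 0.19 to 0.39. The summed gene-end signal of the 12 cardiomyocyte markers, which include Myh6, was 1450 and 1384 CPM in the wild type and 1644 and 1471 CPM in the mutant, with 0 of their 30 gene-end peaks called higher and 2 lower. Of the other cell types, neural and Schwann markers had a sum of 89.6 and 84.2 CPM in the wild type and 115 and 107 CPM in the mutant (8 gene-end peaks, 1 called higher). Mural markers had 241 and 235 CPM against 277 and 255 CPM, and leukocyte markers 133 and 127 CPM against 134 and 137 CPM. The genotypes overlapped for fibroblast markers, with 139 and 147 CPM against 133 and 151 CPM, and for the endothelial markers given above. The part of these sums in the sarcomere values was not tested. The 14 sarcomere peaks were also wide, at a median of 6011 bp against 2645.5 bp in the set. Among the 500 peaks of the set above its median width, log2 fold changes centered on 0.03. The part of width in the sarcomere values was not tested either. The list and the genes above overlap with gene groups already seen in earlier results of these data, so their direction is not independent evidence.

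Near the host gene of miR-1, a muscle microRNA, a distal peak rose from 169 and 142 CPM to 245 and 187 CPM (chromosome 2, 180397554 to 180401218; log2 fold change 0.51, edgeR adjusted p = 0.0327, and 0.108 without mutant replicate 1). The neighbouring peak with the start of Mir1a-1hg had 124 and 120 CPM in the wild type and 156 and 157 CPM in the mutant (log2 fold change 0.40 ± 0.12) and narrowly missed the threshold (edgeR adjusted p = 0.0503).

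The 6 peaks that fell had no list in common. A peak within Zbtb16, which encodes the transcription factor PLZF, fell from 126 and 119 CPM to 82.7 and 81.4 CPM (chromosome 9, 48721917 to 48724553; log2 fold change -0.55 ± 0.12, edgeR adjusted p = 0.0139). A peak within Bcl2l1, the gene of the survival factor BCL-XL, fell from 92.1 and 91.9 CPM to 54.1 and 65.6 CPM (chromosome 2, 152785358 to 152786407; log2 fold change -0.59, edgeR adjusted p = 0.0157). In both, the 2 wild-type libraries were close together and the mutant libraries lay clearly below. At the end of Cep128, a centriole gene, the wild type had 80.7 and 110 CPM and the mutant 64.0 and 56.2 CPM (log2 fold change -0.63 ± 0.15, edgeR adjusted p = 0.0179). Peaks at Smpd3, a sphingomyelinase gene, within Sptbn1, a spectrin gene, and at Ankrd37, a gene induced by low oxygen, fell by 0.56, 0.49 and 0.46 on the log2 scale. The adjusted p of Ankrd37 was 0.04995, just inside the threshold.

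Without wild-type replicate 2, none of the 38 calls was kept, and the Myo3a peak was the 1 of the 1000 called in that fit. Without wild-type replicate 1, mutant replicate 1 and mutant replicate 2, 26, 34 and 37 were kept, and DESeq2 kept 28. In these leave-one-out fits the lone library is assumed to vary like the pair of the other genotype.

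**Figure D5:**
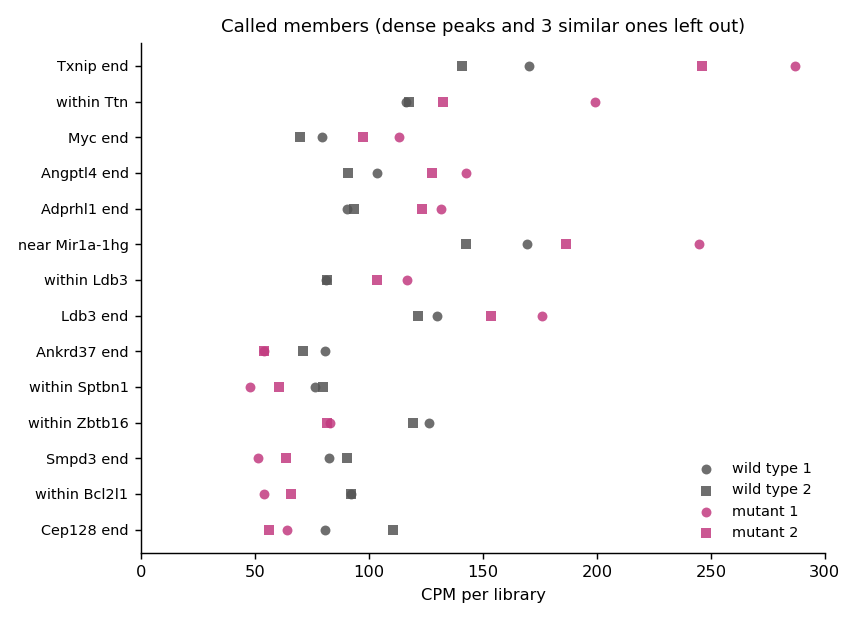
CPM per library of the 14 called peaks that were neither dense nor among the 3 similar ones, with wild-type libraries in grey and mutant libraries in pink. In the 8 upper peaks both mutant points lie to the right of both wild-type points, and in the 6 lower peaks to the left.

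Peaks that left the set were mostly those near its edge. Of the 129 that left the top 1000 by the mutant mean, 127 ranked below 500 in the wild type. Of these 129, 5 were called lower, beside 2.45% lower over all peaks. Another 129 entered, 86 of them gene-end peaks, and 19 of these 129 were called higher, beside 3.05% higher over all peaks. Leaving or entering already depends on the mutant signal against the wild type, so these counts of calls are no separate result. Some came from far below the edge, the lowest from wild-type rank 6122. That peak (chromosome 3, 3010754 to 3012946) had 39.5 and 27.5 CPM in the wild type and 43.7 and 117 CPM in the mutant, so its rise lay mainly in mutant replicate 2 (log2 fold change 1.29, edgeR adjusted p = 0.00965). A peak on chromosome 7 (64073358 to 64077142), from wild-type rank 2415, had 59.9 and 46.6 CPM in the wild type and 78.0 and 192 CPM in the mutant. Ccn2, a matrix-associated growth factor gene, entered with 63.9 and 66.5 CPM in the wild type and 90.7 and 114 CPM in the mutant (log2 fold change 0.68, edgeR adjusted p = 0.00687). Synpo2l, a Z-disc gene, entered with 66.0 and 59.6 CPM in the wild type and 108 and 81.8 CPM in the mutant (log2 fold change 0.63, edgeR adjusted p = 0.0158). These 4 were picked after their values were seen, and peaks that enter a ranking on the mutant had to be high there.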

How the data were processed

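The deposited table holds raw counts, 1 column for each of the 4 libraries and 1 line for each peak, with no normalization by the authors. The submitters' processing notes name FastQC, Bowtie2 and mm10. The peak caller, duplicate handling and any shift of reads for the transposase have no mention in those notes or in the labels and could change peak borders, and so which peaks rank highest. A peak's CPM grows with its width as well as its accessibility. Reads are not molecules, so counts above give counting precision only.

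CPM was the count over the library total. Peaks were tied to genes and start sites with RefSeq tables of GRCm38.p6, the assembly of mm10. Gene ends carry no strand, and start sites come from a promoter table that is not complete. No genome sequence was used. Genotypes were compared with edgeR 4.0.16 (quasi-likelihood, TMM, filterByExpr, genotype as the only term, R 4.3.3) on all peaks, of which 87948 passed the filter, with Benjamini-Hochberg adjustment over all of them. DESeq2 1.42.0 and limma voom 3.58.1 were alternatives, and the script was tested on simulated data. A positive log2 fold change means more signal in the mutant. Assignment used Python 3.11.15.

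Replicates of a genotype were separate libraries by their counts (chi-square over degrees of freedom 4.09 for wild type, 5.76 for mutant). The members, the 18 gene lists (377 of 378 entries matched a symbol) and the 13 families were chosen with earlier results of these data known. Named were the 12 strongest gene-end and distal peaks, up to 8 called peaks in each direction with both mutants on the same side of both wild types, the strongest 3 genes of each list and the peaks at ranks 1000 to 1003. No gene had 5 or more peaks, which would also have been named. Because dense peaks fill most places for distal and higher peaks under this rule, the other distal peaks, the further called peaks and the limit for dense peaks were picked after their values were seen, as were the peaks that entered the mutant ranking.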

Additional observations from a re-analysis of the deposited data

How the results depend on the processing

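When each library was left out in turn, 0 to 74 of the set were higher and 1 to 23 lower, 0 to 50 gene-end and 1 to 46 distal peaks were called, the median log2 fold change was -0.0221 to 0.00705, and 840 to 841 were in the top 1000 of a single mutant library. No call among the 38 was kept in all 4 of these fits. With the replicate block 15 were lower and 17 gene-end peaks were called, and all 38 calls were kept. Deviations of same-numbered libraries correlated at 0.11. With 2 pairs this cannot tell whether same-numbered libraries share more than a number. At adjusted p under 0.1, 12 were lower and 14 gene-end peaks were called. With total counts the median was -0.0408. Choosing the set on all 4 libraries gave 3 lower and a median of 0.0108, and choosing it on wild-type replicate 2 with folds over wild-type replicate 1 gave a median of 0.0157. Choosing it by CPM per kb gave 35 lower, 4 gene-end and 68 distal calls and a median of -0.0678. A set of 500 gave 2 lower, 4 gene-end calls, 430 in the mutant top 500 and 404 gene-end peaks, and a set of 2000 gave 14 lower, 1773 in the mutant top 2000 and 1562 gene-end peaks. Without the dense peaks, an alternative chosen after seeing the data, 11 were higher and 9 distal peaks were called. The cause of these moves was not tested beyond the changed number of peaks or libraries. Of 583 values of 53 single peaks under these settings, 70 lost the threshold and 4 gained it. No called peak changed sign, while some that were not called did.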
